A study of Mus musculus with 8 samples.

Results

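The genes described here are the cytochrome P450 (Cyp) genes of the mouse liver, followed outside hepatocytes as well as inside them. They were taken as every gene of the count table whose symbol is Cyp, a family number, a subfamily letter and a gene number, with a closing letter allowed, and without the Cyp26 retinoic acid enzymes. The rule found 95 of 46517 genes, and 28 other P450-like symbols (pseudogenes, antisense genes and a few names of another form) were left out. By role, 44 were drug-metabolising enzymes of families 2 and 3, 20 belonged to family 4, 13 to the remaining family 2 and orphan enzymes, 9 to steroid hormone and vitamin D metabolism, 6 to bile acid and oxysterol metabolism and 3 to the family induced by the aryl hydrocarbon receptor. Cyp11b2, Cyp2g1, Cyp2j7 and Cyp4a29 had no count in any cell.

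The study sorted single cells from dissociated livers of adult mice and sequenced full-length transcripts with Smart-seq2, a plate-based protocol, in 3491 cells on 22 plates. The cells form 8 pools, with mesenchymal, endothelial, immune and epithelial (parenchymal) cells each taken from male and from female mice. The mice were untreated C57BL6/J animals and heterozygous reporter animals (Pdgfrb-GFP, Pdgfra-H2bGFP, Cspg4-dsRED, Acta2-GFP or Cldn5-GFP), in which a fluorescent protein follows the named gene, so a reporter marks the cells that use that gene. Endothelial cells were sorted by CD31, VE-cadherin or Cldn5-GFP, cholangiocytes (bile duct cells) by EPCAM, Kupffer cells by CD68 and mesenchymal cells by Pdgfra-H2bGFP, Pdgfrb-GFP or Acta2-GFP or an antibody to PDGFRα, whereas hepatocytes were not selected, and livers were not perfused, so blood cells may be among the immune cells. Classes and clusters are those the authors assigned, named here with a hash sign (#e2 for endothelial cluster 2).

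The counts of all cells of a class or cluster in a pool were summed, and levels are given as CPM, the counts of a gene in every 1000000 counts of that sum, with the male pool first. The sums held 201 hepatocytes (male), 157 and 37 cholangiocytes, 655 and 451 endothelial cells, 255 and 396 immune cells and 998 and 339 mesenchymal cells. The female pool had 2 hepatocytes, which were not used as a group, so hepatocytes stand on 1 library with no replicate. Summed counts ran from 6241506 (female cholangiocytes) to 218419420 (male mesenchymal cells), and the male hepatocyte sum was 35858689. Which mouse a cell came from is not given, so each p-value measures the spread between 2 pools of pooled animals of opposite sex, which may be partly technical. The summed level of its own marker list was 7384 and 9122 CPM in cholangiocytes, 7882 and 7568 CPM in endothelial cells, 8397 and 12107 CPM in immune cells and 10113 and 11753 CPM in mesenchymal cells, and hepatocyte markers reached 29228 CPM in hepatocytes. In the cholangiocyte class the hepatocyte markers, at 7476 and 7780 CPM, were about as high as its own markers. Classes and clusters were defined on these same cells, so part of any difference between them is built in, and in summed samples fewer expressing cells and less RNA per cell cannot be told apart.

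P450 enzymes are haem proteins that insert oxygen from molecular oxygen into lipophilic substrates, with electrons delivered by P450 oxidoreductase (Por) in the endoplasmic reticulum or by ferredoxin in mitochondria. Hepatocytes are the best known site, where enzymes of families 1 to 3 oxidise drugs and pollutants, family 4 enzymes hydroxylate fatty acids, and Cyp7a1, Cyp8b1, Cyp27a1, Cyp7b1 and Cyp39a1 turn cholesterol and oxysterols into bile acids. Cyp1a1 and Cyp1b1 are textbook targets of the aryl hydrocarbon receptor (Ahr), which binds the core letters GCGTG as a dimer with Arnt.

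The 120 bases before the start of transcription are shown for the 4 members on which the results outside hepatocytes turn: Cyp1a1, highest in portal vein endothelium, Cyp1b1, highest in central vein endothelium, Cyp4b1, the leading endothelial P450, and Cyp2e1, the leading P450 of male mesenchymal cells. The sequences are from RefSeq (GRCm38.p6), written 5′ to 3′ on the gene's strand. GCGTG and TATAAA were both sought on both strands (as CACGC and TTTATA on the opposite one) and are in capitals.
Cyp1a1, chr9:57697493-57697612, plus strand: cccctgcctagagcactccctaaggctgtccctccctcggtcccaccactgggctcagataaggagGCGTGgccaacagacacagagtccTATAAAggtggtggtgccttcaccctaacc
Cyp1b1, chr17:79715062-79715181, minus strand: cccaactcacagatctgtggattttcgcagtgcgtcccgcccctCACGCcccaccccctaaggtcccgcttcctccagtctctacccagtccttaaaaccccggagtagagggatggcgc
Cyp4b1, chr4:115647722-115647841, minus strand: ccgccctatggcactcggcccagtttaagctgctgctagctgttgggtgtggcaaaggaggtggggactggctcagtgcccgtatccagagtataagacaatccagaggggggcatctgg
Cyp2e1, chr7:140763699-140763818, plus strand: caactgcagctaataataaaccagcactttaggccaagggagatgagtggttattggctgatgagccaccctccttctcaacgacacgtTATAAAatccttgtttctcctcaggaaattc
In Cyp1a1, GCGTG lay 54 to 50 and TATAAA 30 to 25 bases before the start. In Cyp1b1, GCGTG lay on the opposite strand, 76 to 72 bases before the start, and no TATAAA was in the window. Cyp2e1 had TATAAA 31 to 26 bases before the start and no GCGTG, and the Cyp4b1 window held neither word. In the GENCODE annotation behind the counts, Cyp1a1 spans chr9:57687928-57703824, so its window lies inside the annotated gene, upstream of the RefSeq start, whereas the Cyp1b1 and Cyp4b1 windows lie just outside or at the edge of their genes (chr17:79701537-79715061 and chr4:115624725-115647723). Cyp2e1 spans chr7:140763739-140774987, so most of its window, TATAAA included, lies inside the annotated gene. GCGTG was in 5835 of 32851 windows of all genes in the table (17.8%) and in 11 of 82 windows of the P450 genes (13.4%). TATAAA, likewise counted on either strand, was in 2083 of all windows (6.34%) and in 20 of the 82 (24.4%), with 72 P450 genes matched. A match is a description of letters and not a bound site, and a word that is not found is only not in this window.

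Hepatocytes devoted the most RNA to this family: the 95 genes summed to 8868 CPM, or 0.887% of all counts, and 42 of them reached 10 CPM. The sums were 1771 and 1550 CPM in endothelial cells, 1708 and 1139 CPM in mesenchymal cells, 1463 and 1529 CPM in cholangiocytes and 590 and 612 CPM in immune cells. Outside hepatocytes, 8 to 15 members reached 10 CPM in a class pool, so the non-hepatocyte repertoire was narrow and led by a few genes. Cyp4b1, a family 4 enzyme that activates some toxins, made up 61.6% and 46.1% of the P450 counts of endothelial cells. Cyp2d22 led in cholangiocytes with 22.0% and 30.1%. Cyp2e1, the ethanol-oxidising enzyme, led in male mesenchymal cells with 35.7%, and Cyp20a1, an orphan enzyme, in female ones with 22.9%. In immune cells Cyp4f18, a leukotriene-hydroxylating enzyme of leukocytes, led in the male pool with 26.7% and Cyp27a1, the mitochondrial sterol 27-hydroxylase, in the female pool with 26.8%. Per kilobase of exon, the scale on which levels of different genes can be compared, the leaders were Cyp2e1 in hepatocytes (882 CPM per kilobase) and male mesenchymal cells (282), Cyp4b1 in endothelial cells (484 and 317), and Cyp4f14 in male (90.0) and Cyp2d22 in female cholangiocytes (118). On that scale immune cells were led by Cyp4f18 in the male (84.9) and Cyp27a1 in the female pool (75.4), and female mesenchymal cells by Cyp20a1 (114).

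Of the 50 members that reached 10 CPM in any class, taken as the mean of the pools, 37 were highest in hepatocytes, 6 in cholangiocytes (Cyp2d22, Cyp2j6, Cyp2s1, Cyp39a1, Cyp4f13 and Cyp4f14), 3 in mesenchymal cells (Cyp1b1, Cyp20a1 and Cyp2j9), 2 in endothelial cells (Cyp1a1 and Cyp4b1) and 2 in immune cells (Cyp4f16 and Cyp4f18). These ranks are a description and carry no test.

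Each class was then compared with hepatocytes, to see which members are shared with the parenchyma and which are not, by the quasi-likelihood test of edgeR, with p-values of all 27328 genes adjusted together by the Benjamini-Hochberg procedure. A call needed an adjusted p under 0.05 and at least a 2-fold change. The 80 members that passed the filter on low counts were tested, some of them passing only through the class in which they are high. Of these, 22 were lower and 2 higher in cholangiocytes, where 3.3% and 3.63% of all genes were. In endothelial cells 28 were lower and 4 higher, against 6.25% and 5.88% of all genes. In immune cells 34 were lower and 1 higher, against 5.99% and 4.9%. In mesenchymal cells 24 were lower and 3 higher, against 4.35% and 5.54%. The median log2 change of the members was -4.84, -5.71, -6.91 and -5.42 in these comparisons, and that of all genes tested was 0.00, 0.99, 0.80 and 1.29. With values at or under the floor of 3 counts set at that floor, the members' medians were -2.38, -4.17, -4.76 and -4.02. Those of all genes tested were then 1.67, 0.59, 0.54 and 0.64. These counts were lower with 1 library of a class left out: the members called lower were 10 and 7 without the male and the female cholangiocytes, 11 and 12 without those endothelial pools, 17 and 20 without those immune pools and 7 and 5 without those mesenchymal pools, with 1 library left on each side.

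The drug-metabolising enzymes carried most of the fall. Of 36 tested, 14 were lower in cholangiocytes, 17 in endothelial cells, 19 in immune cells and 15 in mesenchymal cells, and 0 were called higher by edgeR, with 0 higher at an unadjusted p under 0.05 as well. Cyp3a11, the main mouse enzyme of the drug-oxidising 3A subfamily, had 823 CPM in hepatocytes, 0.018 and 0 CPM in cholangiocytes, and at most 5.13 CPM in the other classes. Cyp2c29 had 547 CPM in hepatocytes and at most 2.24 CPM elsewhere, and Cyp2f2, which oxidises naphthalene, 553 CPM and at most 7.49 CPM elsewhere. For Cyp3a11, Cyp2c29 and Cyp2f2 every non-hepatocyte library thus lay more than an order of magnitude below hepatocytes. This did not hold for the whole list. Cyp2d22 had 90.9 CPM in hepatocytes and 322 and 461 CPM in cholangiocytes. Cyp2e1 had 1904 CPM in hepatocytes and 609 CPM in male mesenchymal cells, and Cyp3a13 58.3 CPM in hepatocytes and 54.5 CPM in male cholangiocytes. Cyp2c29 fell by 10.08 on the log2 scale in mesenchymal cells (SE 1.53, adjusted p = 0.00853) and Cyp2c50 by 12.27 in immune cells (SE 1.95, adjusted p = 0.00752). Cyp1a2, the caffeine-oxidising member of family 1, had 303 CPM in hepatocytes and at most 4.43 CPM elsewhere, and was called lower in all 4 classes. The Cyp2c, Cyp2d, Cyp3a and Cyp4a subfamilies hold close copies: Cyp3a41a shares 98.6% of its 50-base words with other genes, Cyp2c67 52.8% and Cyp4a12b about as much as Cyp4a12a (48.9%), so counts of such members are uncertain one by one.

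The few members higher than in hepatocytes were of other roles. Cyp4b1 had 6.27 CPM in hepatocytes and 1091 and 715 CPM in endothelial cells (log2 6.41, SE 1.04, adjusted p = 0.0076), and passed in all 8 alternative analyses. Cyp20a1 had 12.5 CPM in hepatocytes and 239.6 and 261 CPM in mesenchymal cells (log2 3.70, SE 0.63, adjusted p = 0.012), and also passed in all 8. Both groups stood well apart from the hepatocyte library in each gene. In endothelial cells Cyp20a1 had 81.3 and 122 CPM (log2 2.27, SE 0.58, adjusted p = 0.038), with an adjusted p of 0.0772 without the male and 0.154 without the female endothelial pool and of 0.137 with sums per plate and plate as a block. Cyp1b1, an extrahepatic enzyme acting on oestrogens and polycyclic hydrocarbons, had 1.09 CPM in hepatocytes, 72.2 and 71.9 CPM in endothelial cells (log2 5.29, SE 1.44, adjusted p = 0.047) and 117 and 48.1 CPM in mesenchymal cells (log2 5.66, SE 1.47, adjusted p = 0.045). Leaving out either pool of the class gave Cyp1b1 an adjusted p of 0.106 to 0.108 in endothelial and of 0.0676 to 0.132 in mesenchymal cells, and the per-plate sums gave 0.114 in endothelial cells. Cyp4f16, which shares 17.4% of its 50-base words mostly with Cyp4f37, had 0.558 CPM in hepatocytes and 16.1 to 52.4 CPM in every other library, and was called higher in all 4 classes with adjusted p from 0.020 in immune cells to 0.036 in cholangiocytes. Those Cyp4f16 calls were lost without the female cholangiocytes (adjusted p = 0.0529), the female immune cells (0.0508), and either endothelial (0.0743 and 0.0839) or mesenchymal pool (0.0794 and 0.0942). With sums per plate and plate as a block all 4 were lost, with adjusted p of 0.234 in cholangiocytes, 0.143 in endothelial, 0.11 in immune and 0.179 in mesenchymal cells. Cyp2s1 had no count in hepatocytes and 23.97 and 94.4 CPM in cholangiocytes, and its call was lost with the sex of the pool as replicate block (adjusted p = 0.0651), with sums per plate and plate as a block (0.379) and without the male (0.0535) or the female cholangiocytes (0.0823).

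How much of a P450 level in a non-hepatocyte class could be free hepatocyte RNA was gauged with 15 hepatocyte markers, each expressed as a percentage of its own hepatocyte level in each class pool. The median marker stood at 6.91% and 6.34% in cholangiocytes, 1.99% and 0.763% in endothelial cells, 2.71% and 2.58% in immune cells and 1.64% and 3.49% in mesenchymal cells. The highest single marker was albumin (Alb) in cholangiocytes (52.2% and 59.98%), Apoa1 in male (3.39%) and Alb in female endothelial cells (2.87%), and transferrin (Trf) in immune (24.3% and 46.0%) and mesenchymal cells (11.1% and 14.7%). Of the 42 members at 10 CPM or more in hepatocytes, 6 and 5 lay above that highest marker in cholangiocytes, 12 and 10 in endothelial cells, 5 and 3 in immune cells and 9 and 8 in mesenchymal cells. Cyp20a1 and Cyp4f13 were above it in all 8 libraries. Cyp2d22, Cyp2j6 and Cyp27a1 were above it in both pools of 3 classes each. Cyp2e1 in mesenchymal cells stood at 32.0% of its hepatocyte level in the male and 11.7% in the female pool, the latter below Trf. The median of the 42 members was 0.851% and 0.0947% in cholangiocytes, 0.526% and 0.538% in endothelial cells, 0.142% and 0.374% in immune cells and 0.496% and 0.530% in mesenchymal cells, so a typical hepatocyte P450 stood below the median marker in every library. The part of free RNA in the lower levels was not tested.

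**Figure D1:**
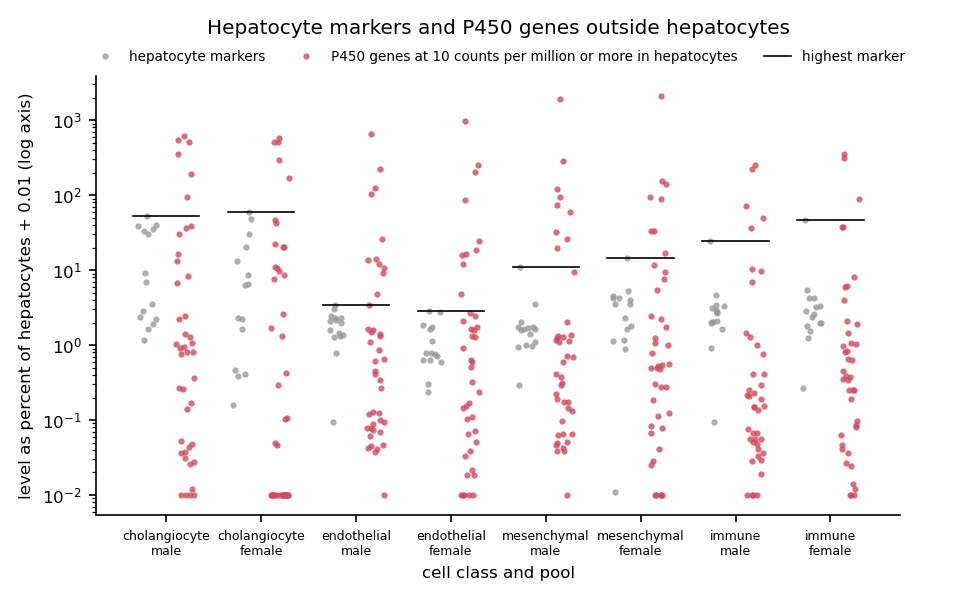
Level of 42 P450 genes and 15 hepatocyte markers in each non-hepatocyte class library as a percentage of the male hepatocyte level (log axis, 0.01 added), with a line at the highest marker. Most P450 points lie below the line in every class, and Cyp20a1 and Cyp4f13 lie above the line in all 8 libraries.

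Among the aryl hydrocarbon family, Cyp1a1 was an endothelial gene. It had 61.7 and 148 CPM in endothelial cells, 2.26 CPM in hepatocytes and at most 1.11 CPM in the other classes, and it was higher than in the other 3 non-hepatocyte classes (log2 9.78, SE 1.03, adjusted p = 0.0018, by the same edgeR test). The lower endothelial pool was 55.8 times the highest of the other non-hepatocyte libraries. With sums made per plate and plate as a block, that class call was lost (adjusted p = 0.237). In that comparison 5 of the 80 members were higher and 3 lower in endothelial cells, where 4.55% and 2.41% of all genes were, and the median log2 change was 0.33 for the members and 0.05 for all genes, which turned to -0.12 and -0.15 with values set at the floor of 3 counts. Cyp1a1 had counts in 211 of 1106 endothelial cells (19.1%) and in 0.374% of mesenchymal cells.

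Within the endothelium, Cyp1a1 and Cyp1b1 marked the 2 venous ends. Cyp1a1 had 609 and 829 CPM in the portal vein cluster #e2, 29.3 and 20.5 CPM in the central vein cluster #e1 and at most 3.76 CPM in the other clusters, so the lower #e2 pool was 20.8 times the highest library elsewhere. Of 42 members it alone was called higher in #e2 (log2 8.79, SE 0.80, adjusted p = 2.1e-05), where 1.85% of 18321 genes were called higher and 0.0819% lower, and it passed in all 10 alternatives. A comparison cluster was at or under 3 counts, so the size of this fold depends on the prior count. Cyp1b1 had 393 and 300.5 CPM in #e1, 99.9 and 57.5 CPM in #e7, the other cluster that the study's text places at the central vein, 49.3 and 1.12 CPM in the lymphatic cluster #e4, and at most 10.3 CPM in the rest. It was called higher in #e1 (log2 7.60, SE 0.88, adjusted p = 2.1e-04), passed in all 10 alternatives and did not overlap any other cluster library. In #e1, 2 members were called higher, against 1.32% of all genes higher and 0.0873% lower, and the other was Cyp2c37, at 0.175 and 9.30 CPM, whose adjusted p was 0.193 with the replicate block and 1.0 without the female #e1 library.

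Counts of either gene were found in part of the cells of its cluster. Cyp1a1 had counts in 75 of 128 #e2 cells and in 42 of 152 #e1 cells, and Cyp1b1 in 101 of 152 #e1 cells and in 15 of 128 #e2 cells. Counts of both were found in 10 of 128 #e2 cells, 25 of 152 #e1 cells and 3 of 150 #e7 cells. Across the 8 plates with at least 5 #e2 cells, Cyp1a1 ran from 28.4 to 1343 CPM with a median of 603 CPM, and across the 5 plates with at least 5 #e1 cells, Cyp1b1 ran from 260.5 to 868 CPM, and neither was missing from its own cluster on any of these plates. The lowest #e2 plate for Cyp1a1 lay within the 0 to 40.4 CPM of the #e1 plates, whereas Cyp1b1 reached at most 2.79 CPM on an #e2 plate. At the authors' finer community level, Cyp1a1 had 703 CPM in #e2c (67 of 114 cells) and 900 CPM in the peribiliary community #e5c, where it was found in 8 of 14 cells and 1 cell gave 45.9% of the counts. Cyp1b1 had 434 CPM in #e11c (65 of 82 cells) and 256 CPM in #e1c (37 of 68 cells). A further comparison set #e3, #e5, #e6 and #e8, which are sinusoidal in the study's text, together with #e7 against #e1, #e2 and #e4. This group was lower in Cyp1a1 (log2 -4.29, SE 0.88, adjusted p = 0.017) and Cyp1b1 (log2 -3.58, SE 0.83, adjusted p = 0.033), the 2 members called lower, against 1.16% of all genes. In the higher direction edgeR called 0, with 2 at an unadjusted p under 0.05 and 0 by DESeq2, against 0.759% of all genes. Without #e7 both remained called lower, with a log2 change of -4.41 for Cyp1a1 (adjusted p = 0.0105) and of -5.14 for Cyp1b1 (adjusted p = 0.0114), and 1 member was called higher. Both calls depended on the libraries and the processing used. Cyp1b1 had an adjusted p of 0.057 with the replicate block, 0.177 and 0.138 without the male and the female libraries of this group and 0.528 without the male comparison libraries. Cyp1a1 had 0.0532 and 0.264 without the male and the female comparison libraries. With cells thinned to 50000 counts the adjusted p was 1.0 for Cyp1a1 and 0.287 for Cyp1b1, with sums per plate and plate as a block 0.0792 and 0.752, and with at least 10 cells per sum 0.204 for Cyp1b1.

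**Figure D2:**
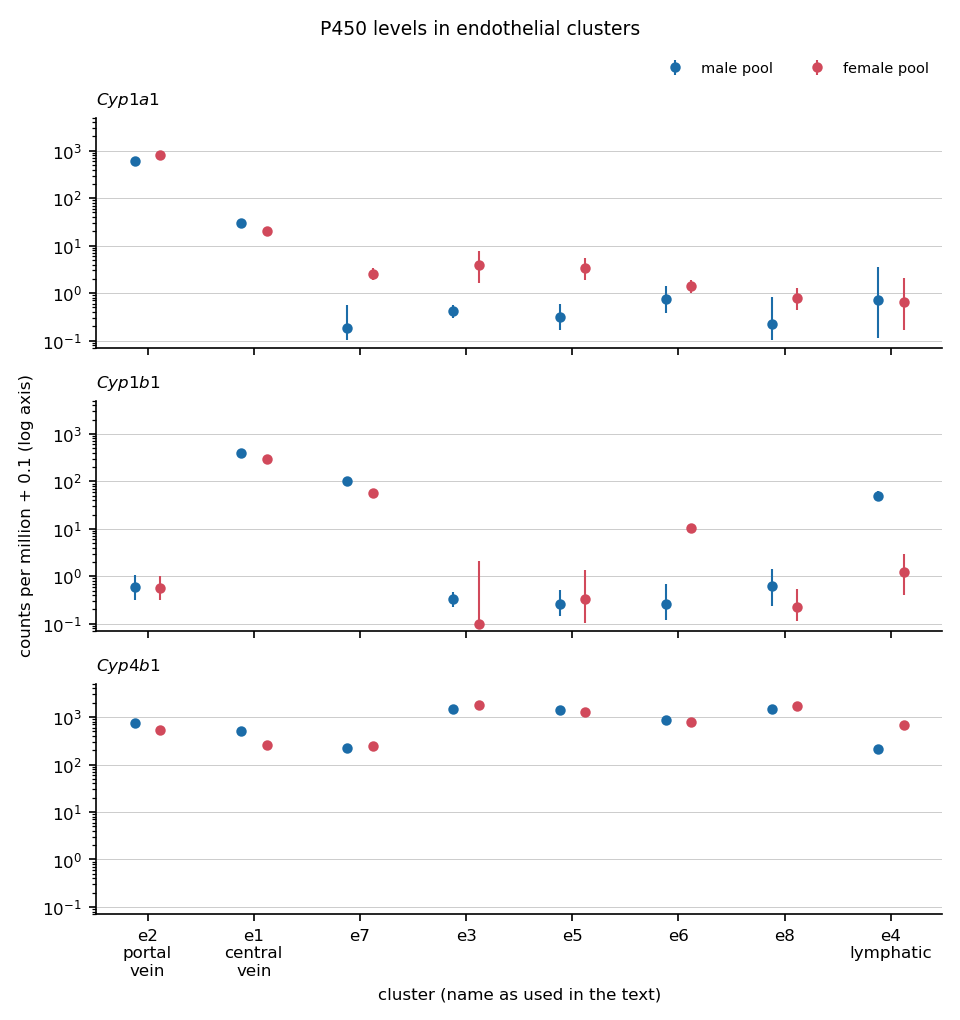
Levels of Cyp1a1, Cyp1b1 and Cyp4b1 in the 8 endothelial clusters, as CPM plus 0.1 on a log axis, with the male pool in blue, the female pool in red and bars for the 95% exact Poisson interval, which covers counting error only. Cyp1a1 peaks in #e2, Cyp1b1 in #e1, and Cyp4b1 is highest in #e3, #e5 and #e8.

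Cyp1b1 was also a mesenchymal gene, at 117 and 48.1 CPM, with at most 2.21 CPM in immune cells and at most 0.338 CPM in cholangiocytes. It was higher in mesenchymal cells (log2 4.99, SE 0.67, adjusted p = 0.0022) and in endothelial cells (log2 4.50, SE 0.67, adjusted p = 0.0064) than in the mean of the other 3 non-hepatocyte classes, and both calls passed in all 10 alternatives, but the endothelial and mesenchymal pools overlapped each other. It was lower in cholangiocytes (log2 -6.27, SE 1.10, adjusted p = 0.0082), with an adjusted p of 0.069 and 0.0613 without the male and the female cholangiocytes. Cyp1b1 had counts in 486 of 1337 mesenchymal cells (36.4%, 95% exact interval 33.8 to 39.0%). Its levels ran from 333 and 148 CPM in the fibroblast cluster #m9, through 142 and 56.8 CPM in #m5 and 108 and 72.7 CPM in the stellate cluster #m3, to 3.72 and 1.79 CPM in #m4 and 1.22 and 1.72 CPM in the arterial smooth muscle cluster #m2. In #m9 the community #m11c held most of it, with 409 CPM in 33 of 53 cells, against 150 CPM in #m12c.

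Cyp4b1 was the broadest endothelial P450. It had 1091 and 715 CPM in endothelial cells, 31.0 and 17.5 CPM in mesenchymal, 25.9 and 21.6 CPM in immune cells and 5.74 and 20.03 CPM in cholangiocytes. The endothelial pools did not overlap the others, the lower being 23.04 times the highest of them (log2 5.52, SE 0.46, adjusted p = 0.00081), and the call passed in all 10 alternatives. Counts were found in 1024 of 1106 endothelial cells (92.6%, 95% exact interval 90.9 to 94.1%), and also in 46.5% of immune cells, 28.4% of cholangiocytes, 26.9% of hepatocytes and 17.8% of mesenchymal cells. In the immune cluster #i4 Cyp4b1 had 334 and 155 CPM beside a summed endothelial marker level of 1942 and 2368 CPM, the highest of the immune clusters, where the others had 287 to 1721 CPM. The study describes a Kupffer community, #i9c, as contaminated by endothelial cells, and its cells were kept in the immune class here. The part of endothelial RNA in the #i4 level was not tested.

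Along the vessels Cyp4b1 was highest in sinusoidal clusters, with 1454 and 1782.5 CPM in #e3 (from 230 and 6 cells), 1513 and 1676 CPM in #e8 and 1426 and 1286 CPM in #e5. It had 849 and 771 CPM in the sinusoidal cluster #e6, 740.4 and 528 CPM in the portal vein cluster #e2, 501 and 261 CPM in the central vein cluster #e1 and 225 and 241 CPM in #e7. The lymphatic cluster #e4 had 211 and 667 CPM from 9 and 13 cells. The pools of #e3 and #e8 overlapped and those of #e5 lay just under them, and all 3 lay above the other clusters. Further down, #e6 was above #e2 in both pools, #e1 and #e7 were parted by less than the spread within #e1, and the #e4 pools spanned several clusters. The log2 change of #e1 against the other clusters was -1.05 (SE 0.36, adjusted p = 0.2358), and that of #e3, #e5, #e6, #e7 and #e8 together 0.998 (SE 0.236, adjusted p = 0.0373), just under the 2-fold limit of a call. The level of #e7 was the lowest female level of the 8 clusters and the lowest male level but that of #e4.

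Family 4 also held the immune member and the bile duct members. Cyp4f18 had 158 and 95.0 CPM in immune cells and at most 2.07 CPM in other classes, and was higher there than in the other 3 non-hepatocyte classes (log2 7.74, SE 1.12, adjusted p = 0.0033), with the lower pool 45.8 times the highest other library. It passed in all 10 alternatives, and counts were found in 271 of 651 immune cells (41.6%) and 2.02% of mesenchymal cells. Within immune cells it was highest in the B cell cluster #i5 (355.5 CPM, male) and the monocytic cluster #i2 (211.5 CPM, male). The Kupffer clusters had 27.7 and 53.6 CPM in #i1, 1.46 and 114 CPM in #i3, 0.326 and 63.5 CPM in #i4, and 100.1 and 66.8 CPM in the female #i7 and #i6. Kupffer cells against the other immune clusters gave 0 called members of 48 by edgeR in either direction, where 0.995% and 1.35% of 20110 genes were called, with 4 members at an unadjusted p under 0.05 and 0 called by DESeq2. For Cyp4f18 the log2 change was -2.21 (SE 1.14, adjusted p = 0.5958), and the #i2 and #i5 side is male only. At the community level Cyp4f18 had 365 CPM in #i2c, macrophages derived from monocytes in the study's account (20 of 41 cells), 60.3 CPM in the Kupffer community #i4c and 13.2 CPM in the dendritic community #i7c.

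Cyp4f14, a fatty acid hydroxylase of the 4F subfamily, had 218 and 193 CPM in cholangiocytes and 113 CPM in hepatocytes, with at most 8.61 CPM in any other library. It was higher in cholangiocytes than in the 3 non-parenchymal classes (log2 8.49, SE 0.73, adjusted p = 0.00032), 22.4 times the highest other library, and was not called against hepatocytes (log2 -0.02, SE 1.04, adjusted p = 1.0). It was lower in endothelial (log2 -6.10, adjusted p = 0.011) and immune cells (log2 -3.99, adjusted p = 0.026), with an adjusted p of 0.084 without the male endothelial pool and of 0.158 and 0.0754 without the male and the female immune pool, and both calls were lost with sums per plate and plate as a block (0.0745 and 0.346). The comparison averages logs over the other classes, and for Cyp4f14 the immune pools (0.162 and 0.383 CPM) lay above the endothelial ones (0.040 and 0.154 CPM). Cyp4f13 had 120.25 and 122 CPM in cholangiocytes, 53.8 and 84.4 CPM in immune cells, and 23.8 to 59.96 CPM elsewhere (cholangiocytes log2 1.22, SE 0.40, adjusted p = 0.0994). Cyp4v3, a fatty acid hydroxylase, had 241 CPM in hepatocytes, 94.4 and 111 CPM in cholangiocytes, 87.5 and 92.1 CPM in immune cells, 47.2 and 41.1 CPM in mesenchymal and 21.9 and 28.8 CPM in endothelial cells, and was called lower than in hepatocytes in all 4 classes. In immune cells it was nearly absent from the B cell cluster #i5 (0.469 CPM) and had 103 CPM in #i2.

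In cholangiocytes 10 members were called higher than in the other 3 non-hepatocyte classes and 5 lower, against 6.7% and 3.84% of all genes, and the median log2 change was -0.65 for the members and -0.48 for all genes tested. With values at or under the floor of 3 counts set at that floor, these medians turned to 1.58 and 0.59. In all 10 the cholangiocyte pools lay above every library of the other 3 classes. Cyp2j5, an epoxygenase that acts on arachidonic acid, had 81.9 and 96.0 CPM against at most 3.57 CPM in those classes and 225 CPM in hepatocytes (log2 6.68, SE 0.89, adjusted p = 0.0022). Cyp2j6, of the same subfamily, had 263 and 129 CPM, with 31.7 to 45.5 CPM in endothelial and mesenchymal cells and 43.3 CPM in hepatocytes (log2 3.52, SE 0.40, adjusted p = 0.0011). Cyp39a1, the oxysterol 7α-hydroxylase acting on 24-hydroxycholesterol, had 87.5 and 66.7 CPM, with 18.9 and 14.8 CPM in mesenchymal cells, 6.67 CPM in hepatocytes and 2.27 and 6.32 CPM in endothelial cells (log2 5.17, SE 0.54, adjusted p = 0.00066). Cyp2d22 had 322 and 461 CPM, only 1.23 times the highest other library, in 155 of 194 cells (log2 2.36, SE 0.36, adjusted p = 0.0044). Cyp2j5, Cyp39a1 and Cyp4f14 passed in all 10 alternatives, and Cyp2j6 in 9, with an adjusted p of 0.0652 when sums were made per plate. Hepatocyte markers were highest in this class, as given above, and of these genes Cyp2d22, Cyp2j6 and Cyp4f14 lay above the highest marker in both pools and Cyp2j5 did not.

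The remaining cholangiocyte calls rested on few cells. Cyp2s1, an epithelial enzyme, had 23.97 and 94.4 CPM in 22 of 194 cells, and 1 cell gave 67.1% of its female counts (log2 6.3997, SE 0.94, adjusted p = 0.0037). With sums per plate and plate as a block its log2 change was -0.22 (adjusted p = 0.954). Cyp3a13 had 54.5 and 11.9 CPM and 58.3 CPM in hepatocytes (log2 6.84, SE 1.43, adjusted p = 0.018), with an adjusted p of 0.122 without the male cholangiocytes. Cyp2d10 had 5.07 and 16.02 CPM, the female value from 1 cell (adjusted p = 0.038, but 0.075 with the replicate block, 0.405 with cells thinned to 50000 counts, and 0.0644 and 0.27 without the male and the female cholangiocytes). Cyp4f15 had 14.7 and 5.29 CPM, from 13 and 2 cells, and at most 1.28 CPM in the other 3 classes (adjusted p = 0.0055), and passed in all 10 alternatives. Cyp2a12 had 1.37 and 2.56 CPM, from 5 and 2 cells (adjusted p = 0.045). Of 101 class sums outside hepatocytes in which a member reached 10 CPM, 6 drew at least 50% of the counts from 1 cell, and all 6 were in cholangiocytes. Cyp27a1 was lower in cholangiocytes, at 0.462 and 2.40 CPM (log2 -6.404, SE 0.79, adjusted p = 0.0015), which was below every other library and passed in all 10 alternatives.

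Mesenchymal cells had 10 members called higher and 1 lower, against 8.43% and 1.65% of all genes, with a median log2 change of 0.64 for the members and 0.14 for all genes, which turned to -0.24 and -0.25 with that floor. Cyp2e1 had 609 and 222 CPM, and 31.3 CPM or less in endothelial, immune and bile duct cells (log2 4.92, SE 0.47, adjusted p = 0.00046). The lower mesenchymal pool was 7.11 times the highest of these, and the call passed in all 10 alternatives. Counts of Cyp2e1 were found in 1139 of 1337 mesenchymal cells (85.2%, 95% exact interval 83.2 to 87.1%), near the 89.1% of hepatocytes, but also in 37.2% of endothelial, 47.3% of immune and 36.1% of cholangiocytes. Male mesenchymal cells with at least 20 Cyp2e1 counts (407 cells) had a summed hepatocyte marker level of 947 CPM and those without a count (171 cells) 832 CPM. In the female pool the same groups had 1517 CPM (111 cells) and 1838 CPM (27 cells). Cyp3a11, which hepatocytes hold in plenty, was at 3.27 and 1.11 CPM in the male and female cells with Cyp2e1 and at 0.207 and 0 CPM in those without. The median cell had 649 CPM of the markers with Cyp2e1 and 333 CPM without in the male pool, and 1167 and 1842 CPM in the female pool. The markers were thus higher beside Cyp2e1 in the male pool and lower in the female pool, by sum and by median, and their part in the Cyp2e1 level was not tested.

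Among mesenchymal clusters Cyp2e1 was highest in cluster #m5, at 2018 and 865 CPM, above the 1904 CPM of all hepatocytes in the male pool. The fibroblast cluster #m4 had 1233 and 297 CPM, #m1 489 and 240.1 CPM, and the male-only #m10 and #m8 628 and 525.5 CPM. The mural cluster #m6 had 560 and 544 CPM and the stellate cluster #m3 270.4 and 172 CPM. The study counts #m5 among the mural clusters but takes most of it, the community #m5c, for second layer cells, whose expression signature it places nearer to fibroblasts. At the low end were the portal vein smooth muscle cluster #m7 (143 and 40.7 CPM), the fibroblast cluster #m9 (126 and 15.8 CPM) and the arterial smooth muscle cluster #m2 (27.9 and 14.9986 CPM). Over plates with at least 5 cells of the cluster, #m5 ran from 853 to 3429 CPM (7 plates) and #m2 from 14.9986 to 62.4 CPM (4 plates), with no overlap, and in the community #m5c Cyp2e1 had 1777 CPM and was found in 87 of 87 cells. With #m5 grouped as mural, high and low clusters fell within the same type, and Cyp2e1 was not called for fibroblast (log2 0.91, SE 0.47, adjusted p = 0.7268), stellate (log2 -0.38, SE 0.65, adjusted p = 1.0) or mural clusters (log2 -0.53, SE 0.44, adjusted p = 0.9215) against the rest.

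**Figure D3:**
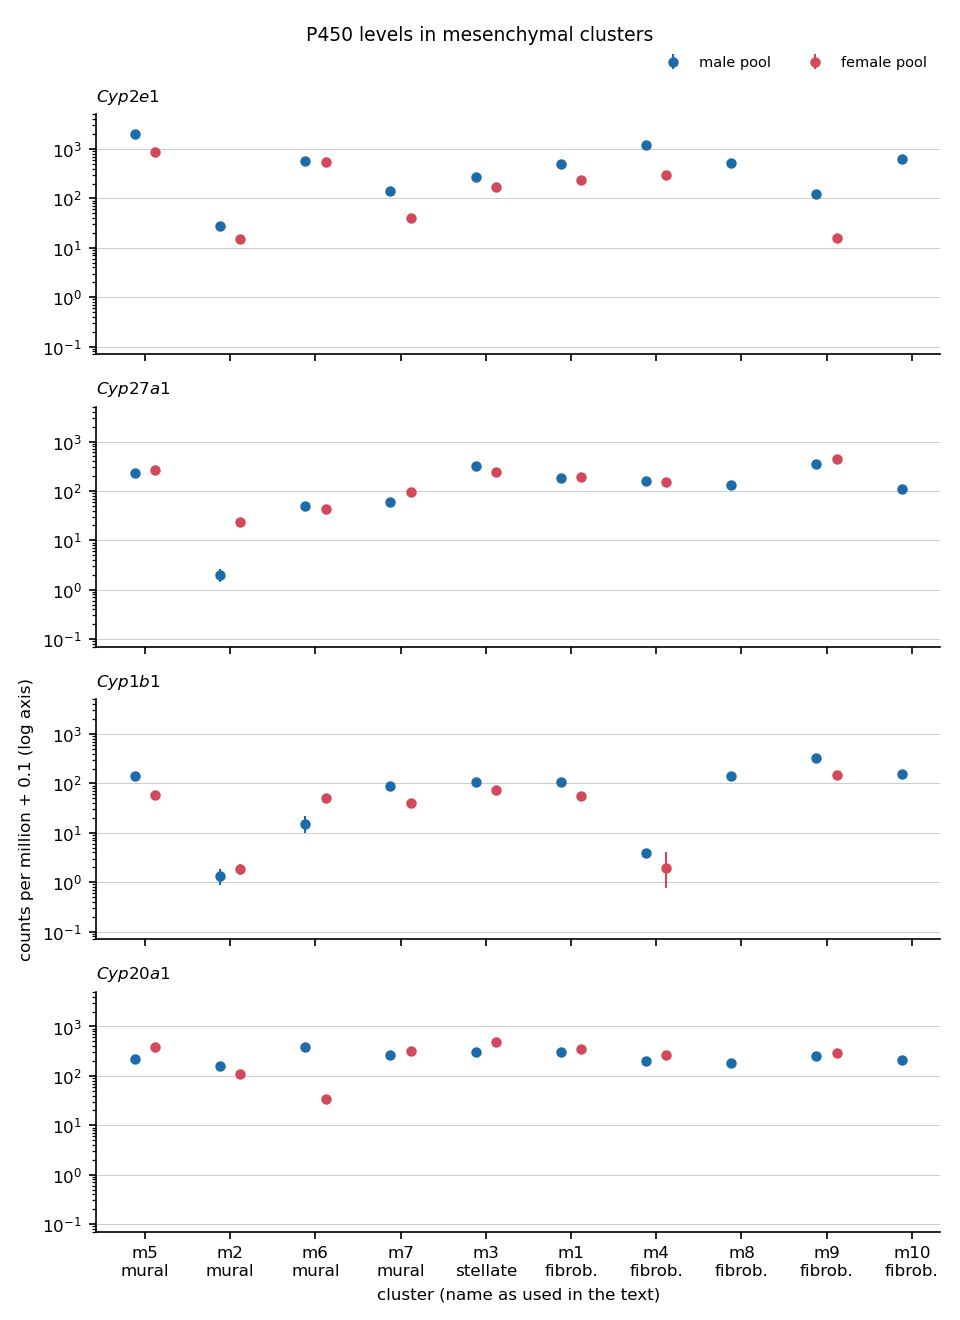
Levels of Cyp2e1, Cyp27a1, Cyp1b1 and Cyp20a1 in the 10 mesenchymal clusters, as CPM plus 0.1 on a log axis, with the male pool in blue, the female pool in red and bars for the 95% exact Poisson interval. Cyp2e1 is highest in #m5 and lowest in #m2, and Cyp1b1 and Cyp27a1 are low in #m2.

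Cyp27a1 was shared by hepatocytes (186 CPM), mesenchymal cells (178 and 165 CPM) and immune cells (133 and 164 CPM), with 25.8 and 34.0 CPM in endothelial cells. The first 3 lay close together, the lower mesenchymal pool being 1.01 times the higher immune pool. It was called higher in mesenchymal (log2 3.45, SE 0.47, adjusted p = 0.0023) and in immune cells (log2 3.05, SE 0.47, adjusted p = 0.0046) than in the mean of the other 3 classes, and both passed in all 10 alternatives. Counts were found in 56.3% of mesenchymal, 54.8% of immune and 16.004% of endothelial cells. Its levels were 355 and 444 CPM in #m9, 319 and 244 CPM in the stellate cluster #m3 and 235 and 260 CPM in #m5, and 1.87 and 23.4 CPM in #m2. In immune cells the range was from 22.0 CPM in #i5 and 61.5 and 4.57 CPM in #i1 to 234 and 288 CPM in #i3 and 252 CPM in #i2.

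Cyp20a1 had 239.6 and 261 CPM in mesenchymal cells, 81.3 and 122 CPM in endothelial cells, 67.2 and 72.7 CPM in cholangiocytes and 31.3 and 38.7 CPM in immune cells. The mesenchymal pools were above all of these (log2 2.15, SE 0.31, adjusted p = 0.0032), and the gene was found in 903 of 1337 mesenchymal cells (67.5%) and 15.4% of hepatocytes. It was the most even of the mesenchymal members, with 110 CPM or more in every cluster library but female #m6 (34.1 CPM). Cyp2d22 had 262 and 140 CPM in mesenchymal cells and was called higher (log2 1.48, SE 0.37, adjusted p = 0.038), although cholangiocytes were higher and the endothelial pools (204 and 187 CPM) overlapped, because the comparison averages logs and immune cells had only 9.31 and 5.34 CPM. Cyp7b1, the oxysterol 7α-hydroxylase, had 30.6 and 39.3 CPM in mesenchymal cells and 117 CPM in hepatocytes, and was higher than in the other classes (log2 3.06, SE 0.47, adjusted p = 0.0038), again through immune cells at 0.162 and 0.443 CPM. Cyp2j9 had 22.1 and 23.5 CPM in mesenchymal and 19.7 and 21.8 CPM in endothelial cells and was called in both. The Cyp2j9 calls were lost without either pool of the class, with adjusted p of 0.0791 and 0.0713 in mesenchymal and of 0.133 and 0.152 in endothelial cells, and the endothelial one also with sums per plate and plate as a block (0.529). Cyp7b1 passed in all 10 alternatives, whereas Cyp4a14 lost its call in 5 of 9 and Cyp2c54 in 3 of 9. The rest of the 10 were Cyp39a1, which cholangiocytes exceeded (adjusted p = 0.0739 with sums per plate and plate as a block, and 0.127 and 0.0525 without the male and the female mesenchymal pool), and Cyp4a14 and Cyp2c54, at 3.03 CPM or less.

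The mural clusters together were lower than fibroblast and stellate clusters in Cyp2d22 (log2 -2.07, SE 0.38, adjusted p = 0.0043), Cyp27a1 (log2 -1.997, SE 0.38, adjusted p = 0.0064) and Cyp1b1 (log2 -1.72, SE 0.43, adjusted p = 0.042), 3 of 55 members, against 1.55% of 22365 genes. In the higher direction edgeR called 0, with 2 at an unadjusted p under 0.05 and 1 by DESeq2, against 0.751% of all genes. In none of these did the groups of libraries stand apart. Cyp2d22 was at 45.5 and 43.4 CPM in #m2 and 1.70 and 21.8 CPM in #m6 but at 344 and 174 CPM in #m5, and at 379 and 283 CPM in #m3. Without the male comparison libraries the adjusted p was 0.264 for Cyp2d22, 0.102 for Cyp27a1 and 0.965 for Cyp1b1, and Cyp1b1 was also lost without either mural pool (0.0536 and 0.0538) or the female comparison libraries (0.0847). With sums per plate and plate as a block the adjusted p was 0.0668 for Cyp27a1 and 0.608 for Cyp1b1. Fibroblasts against stellate and mural cells gave 0 of 55 members by edgeR in either direction, where 0.653% of all genes were called higher and 0.326% lower. At an unadjusted p under 0.05 there were 0 higher and 4 lower, and DESeq2 called 0 higher and 2 lower. Stellate cells had 2 members called higher, Cyp2c70 and Cyp2a12, where 2.41% of all genes were called higher and 0.291% lower. Cyp2c70 had 0.121 and 18.5 CPM there and Cyp2a12 0.423 and 8.05 CPM, so both calls rested on the female pool of 26 cells, and both had an adjusted p of 1.0 without it.

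A small community within #m9 stood out for Cyp2s1, chosen here after its values were seen. In #m16c, 6 cells with mesothelial markers in the study's account, Cyp2s1 had 946 CPM and was found in 6 of 6 cells, at 307 to 3218 CPM with a median of 1185 CPM. The cells came from 5 plates, 4 from the male and 2 from the female pool. Krt7 and Krt19, keratins of simple epithelia, were at 1683 and 1523 CPM there and Epcam, the sort marker of cholangiocytes, at 0. The fibroblast communities of the same cluster had Cyp2s1 at 4.20 CPM (1 of 53 cells) and 19.2 CPM (4 of 60 cells). No test was made for so few cells.

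Immune cells had 3 members called higher and 7 lower than the other 3 non-hepatocyte classes, against 6.77% and 4.72% of all genes, with a median log2 change of -0.93 for the members and 0.00 for all genes, or -1.25 and -0.25 with the floor. Besides Cyp4f18 and Cyp27a1 the third was Cyp3a11, at 3.32 and 3.63 CPM, whose adjusted p was 0.0729 with the replicate block and 0.1 and 0.124 without the male and the female immune pool and 0.23 with sums per plate and plate as a block. The lower ones included Cyp39a1 (0.088 and 0.094 CPM, log2 -7.55, SE 0.91, adjusted p = 0.0015), Cyp7b1 (log2 -6.14, SE 0.76, adjusted p = 0.0017), Cyp2d22 (log2 -5.05, SE 0.55, adjusted p = 0.0010) and Cyp2j6 (3.03 and 1.71 CPM, log2 -4.77, SE 0.61, adjusted p = 0.0019). In each of these 4 the immune pools lay below every other non-hepatocyte library, and each passed in all 10 alternatives. Cyp11a1, the mitochondrial enzyme that starts steroid synthesis from cholesterol, had 13.9 CPM in male and 0.664 CPM in female immune cells. Its male level was in the monocytic cluster #i2 (41.9 CPM), and the community #i2c, drawn from #i2 and #i5, had 80.4 CPM, where it was found in 8 of 41 cells and 1 cell gave 50.4% of the counts.

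By role, the bile acid and oxysterol enzymes kept to hepatocytes only in part. Of the 6, 4 were lower than in hepatocytes in cholangiocytes (Cyp27a1, Cyp7a1, Cyp7b1 and Cyp8b1), 3 in endothelial cells (Cyp27a1, Cyp7b1 and Cyp8b1), 3 in immune cells (Cyp39a1, Cyp7b1 and Cyp8b1) and 1 in mesenchymal cells (Cyp8b1). In the same order, 3.3%, 6.25%, 5.99% and 4.35% of all genes were lower. Cyp8b1, the sterol 12α-hydroxylase, had 171 CPM in hepatocytes and at most 3.57 CPM elsewhere. Cyp7a1, the rate-limiting enzyme of bile acid synthesis, had 20.6 CPM in hepatocytes and at most 1.69 CPM elsewhere. Cyp46a1, the brain enzyme that makes 24-hydroxycholesterol, had 0.084 CPM in hepatocytes, 14.7 and 1.44 CPM in cholangiocytes and 7.76 and 3.05 CPM in mesenchymal cells. Of the 9 steroid hormone and vitamin D enzymes, 7 were tested and edgeR called 0 against hepatocytes in any class, with 2 lower in cholangiocytes and 1 in mesenchymal cells at an unadjusted p under 0.05. Besides Cyp11a1 the highest were Cyp2r1, a vitamin D 25-hydroxylase, at 17.9 CPM in hepatocytes and 6.63 to 8.76 CPM in immune cells, and Cyp17a1 at 5.30 CPM in hepatocytes. Cyp19a1, Cyp24a1, Cyp27b1 and Cyp11b1 stayed at or under 0.320 CPM in every class library.

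Inside the hepatocytes the family was spread unevenly between #p4, the periportal, and #p5, the pericentral cluster, of 59 and 57 male cells, nearly all from the same plate (56 and 56). Each is 1 library and the clusters were made on these genes among others, so the ratios are a description with no test. Summed over the 95 genes the level was 5378 CPM in #p4, 8550 CPM in #p5, 6721 CPM in #p1 and 26935 CPM in #p3, a cluster of 23 cells that was highest for most members. Toward the pericentral side lay Cyp2e1 (2770 in #p5 against 201 CPM in #p4, log2 3.79), Cyp2c54 (149.9 against 0.607 CPM, log2 7.95), Cyp2a5 (124 against 0.304 CPM) and Cyp2c38 (88.9 against 0.304 CPM). So did Cyp2c37 (250.3 against 6.30 CPM), Cyp4a14 (88.7 against 3.87 CPM, log2 4.52), Cyp2c29 (612 against 31.0 CPM), Cyp2c50 (602 against 63.5 CPM) and Cyp1a2 (273 against 30.3 CPM). Cyp2c29 was thus 4.30 higher and Cyp1a2 3.17 higher on the log2 scale. Toward the periportal side lay Cyp2f2 (24.9 in #p5 against 1164 CPM in #p4, log2 -5.55), Cyp2a12 (38.6 in #p5 against 215 CPM in #p4, log2 -2.47), Cyp3a13 (log2 -1.87), Cyp2d10 (log2 -1.25), Cyp4v3 (log2 -1.22) and Cyp2j5 (log2 -1.01). For Cyp3a13 the log2 ratio was smaller with thinned cells (-0.96) and as the mean of cells (-0.94). Of the members prominent outside hepatocytes, Cyp4f13 had 5.22 CPM in #p5 and 43.8 CPM in #p4, Cyp39a1 0.104 and 10.9 CPM and Cyp7b1 was level (log2 -0.16).

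**Figure D4:**
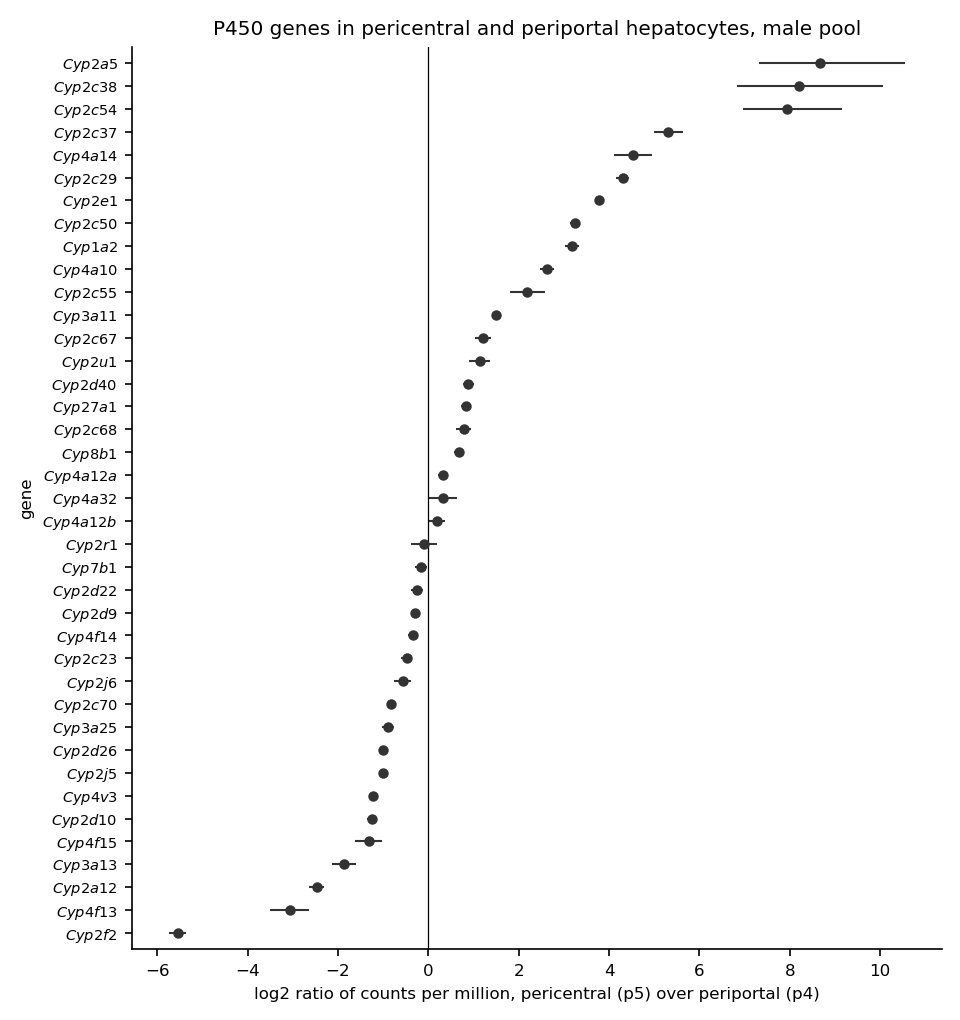
Log2 ratio of the level in pericentral (#p5) to periportal (#p4) hepatocytes for the P450 genes at 10 CPM or more in either cluster and more than 3 counts in both, with bars for the counting interval, which covers counting error only. Cyp2a5, Cyp2c38 and Cyp2c54 lie farthest to the pericentral side and Cyp2f2 and Cyp4f13 to the periportal side.

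Genes that serve or regulate P450 enzymes were followed as a list of 28, of which 5 are themselves P450 enzymes whose symbols the rule leaves out (Tbxas1, Ptgis, Cyp51, Cyp26a1 and Cyp26b1). Against hepatocytes, 6 were lower and 1 higher in cholangiocytes, 12 and 1 in endothelial cells, 14 and 3 in immune cells and 10 and 2 in mesenchymal cells, beside the shares of all genes given above for the same comparisons (3.3% lower and 3.63% higher in cholangiocytes, 6.25% and 5.88% in endothelial, 5.99% and 4.9% in immune and 4.35% and 5.54% in mesenchymal cells). Por, the electron donor of the microsomal enzymes, was at 38.4 CPM in the single hepatocyte library, the lowest of the classes. It had 149.6 and 459.8 CPM in cholangiocytes, 306 and 348 CPM in mesenchymal cells, 74.0 and 194 CPM in immune cells and 88.2 and 113 CPM in endothelial cells. Por was not called against hepatocytes in any class. Other electron partners on the list went the other way: Cyb5a, Cyb5b and Cyb5r3 were called lower than in hepatocytes in every class. Fdx1 was called lower in endothelial, immune and mesenchymal cells and Fdxr in endothelial cells. Among the non-hepatocyte classes, 3 of the list were higher in endothelial cells (Ahr, its target Nqo1, and Cyp26b1) and 1 lower. Ahr had 167 and 169 CPM in endothelial cells, 38.0 CPM in hepatocytes and at most 16.9 CPM elsewhere, and Nqo1 had 119.6 and 194 CPM, with 24.3 and 35.9 CPM in mesenchymal cells and 19.9 CPM in hepatocytes. Within the endothelium the order of Ahr was not that of Cyp1a1, with 364 and 255 CPM in #e6, 243 and 234 CPM in #e1, 197 and 123 CPM in #e7 and 116 and 121 CPM in #e2. Of the 5 genes of the Ahr axis, edgeR called 0 in #e1 and 0 in #e2, with 2 and 0 at an unadjusted p under 0.05. Ephx1, the epoxide hydrolase that works on P450 products, was called higher in both venous clusters, at 429 and 332 CPM in #e2 and 342 and 349 CPM in #e1, against 13.5 and 11.8 CPM in #e3. In cholangiocytes 5 of the list were higher (Cyb5b, Nr1i2, Hnf4a, Ephx2 and Cyp51) and 3 lower, and in mesenchymal cells Nr1h4 and Ptgis, the prostacyclin synthase (592 and 608 CPM), were higher and Tbxas1 lower. In immune cells Nqo1 and Nr1h4 were lower and 5 were higher, among them Hmox1, which breaks down haem (680.02 and 1313 CPM), and Tbxas1, the thromboxane synthase (246 and 510.02 CPM). In these comparisons between the non-hepatocyte classes the shares of all genes called higher and lower were 6.7% and 3.84% for cholangiocytes, 4.55% and 2.41% for endothelial, 6.77% and 4.72% for immune and 8.43% and 1.65% for mesenchymal cells.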

How the data were processed

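Per the labels and the study's methods, single cells were sorted into multiwell plates from mouse liver dissociated with a muscle dissociation kit and collagenase, and libraries were made with Smart-seq2. The deposited table holds raw counts per gene and cell that the authors made by alignment to GRCm38 (mm10). Their processing notes name bcl2fastq, Bowtie, Bowtie2, featureCounts, Subread and Seurat, without versions, and the handling of reads that match several genes is not given in the sources used here. Classes and clusters were taken from the authors' cell annotation. The authors had removed cells with clear signs of contamination and set an upper limit on genes per cell against doublets. No further doublet calling was done. Community #i9c, which the study describes as Kupffer cells contaminated by endothelial cells, was kept here. It held 26 cells with a summed endothelial marker level of 4037 CPM. The 92 spike-in rows were removed and no cell was dropped. Sums of fewer than 5 cells and genes that failed the filter on low counts did not enter the tests.

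Counts per cell without spike-ins ran from 47063 to 1128421, with a median of 228708. Counts were summed per class or cluster and pool (at least 5 cells) and tested across all genes with edgeR 4.0.16 in R 4.3.3 (filterByExpr, TMM factors, quasi-likelihood test, Benjamini-Hochberg adjustment, called at an adjusted p under 0.05 and an absolute log2 change of at least 1). Python 3.11.15, pandas 2.3.3 and scipy 1.17.1 were used for levels and intervals, which are 95% exact intervals and cover counting error only. The floor for a count of 0 is 3 counts. DESeq2 1.42.0, no filter, the sex of the pool as replicate block, at least 10 cells per sum, cells thinned to 50000 counts, sums per plate, and leaving out each library were tried. The test was checked on simulated counts: in the cholangiocyte comparison 49% of genes changed 4-fold were recovered, in #e2 77%, in fibroblasts 95% and in Kupffer cells 9%, and of genes changed 2-fold 3%, 8%, 6% and 1%, with at most 0.041% of unchanged genes called. The simulated counts were independent, with the same fixed dispersion for every gene and no pool, sex or plate effect. Only well-counted genes were changed, so these shares need not hold for the real sums.

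Same-numbered sums come from mice of the same sex, and in the class sums all 6 pairs of classes deviated together weakly (correlation 0.136 to 0.211 over 11593 genes). Whether the classes share mice is not given. The main tests were fitted without a block, and the sex of the pool entered only in the alternative with the replicate block. In the clusters the correlation was over 0.1 in 3 of 28 endothelial, 23 of 28 mesenchymal and 1 of 3 immune pairs. Named genes are the members the study's results name, up to 8 called members per direction and comparison with the largest change, members at 50 CPM or more in a non-hepatocyte class or cluster of at least 10 cells, the 12 highest hepatocyte members, and the 6 with the largest ratio in each direction between #p5 and #p4. The members and lists were chosen with earlier results of these data known.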

Additional observations from a re-analysis of the deposited data

Results flagged for a closer look

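In 2 genes the pools of the 2 sexes moved in opposite directions under the same comparison, and in neither was that difference tested. Cyp4v3 in #e2 was 1.61 higher on the log2 scale than in the other endothelial clusters in the male pool (54.5 against 17.9 CPM) and had a log2 change of -1.85 in the female pool (6.31 against 22.6 CPM). Cyp2e1 in #e3, #e5, #e6, #e7 and #e8 had a log2 change of -1.01 in the male pool (30.1 CPM against 60.8 CPM in #e1, #e2 and #e4) and was 2.34 higher in the female pool (32.3 against 6.39 CPM). Each direction rests on 1 library per cluster and sex.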

How the results depend on the processing

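The hepatocyte side is 1 male library, and the sexes differ by mice, plates and numbers of cells, so these cannot be told apart. Members with close copies, members at a few CPM and cholangiocyte levels carried by 1 cell are the least certain. The causes of the changes given here were not tested, beyond fewer libraries or more genes entering a test.

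Counts of members called higher are, unless hepatocytes are named, against the other 3 non-hepatocyte classes or the comparison clusters. With DESeq2 the members lower than in hepatocytes were 35 in cholangiocytes, and those higher than in the other non-hepatocyte classes or clusters were 17 in cholangiocytes, 6 in immune cells, 1 in #e1, 1 in stellate and 1 in mural cells. With no filter on low counts they were 40 (cholangiocytes) and 38 (mesenchymal cells) lower than in hepatocytes, and, against the other non-hepatocyte classes or clusters, 17, 14, 8 and 23 higher in cholangiocytes, endothelial, immune and mesenchymal cells, 6 in #e2, 5 in #e1, 6 in stellate and 1 in mural cells. With sums per plate and plate as a block, 14 and 22 were lower than in hepatocytes in cholangiocytes and immune cells, 1 was higher in #e1 and 0 in stellate cells (by edgeR). Cyp2s1 then had a log2 change of -0.22 in cholangiocytes. With at least 10 cells per sum 2 were higher in #e2. Thinned cells gave 1 higher in the group of sinusoidal clusters and #e7 (sinusoidal below) and 1 in stellate cells, and leaving out #e7 gave 1 in sinusoidal cells.

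With 1 library left out, the members lower than in hepatocytes were 7 to 10 in cholangiocytes, 11 to 12 in endothelial, 17 to 20 in immune and 5 to 7 in mesenchymal cells. Those higher than in the other non-hepatocyte classes or clusters were 8 to 18 in cholangiocytes, 4 in endothelial cells, 2 to 5 in immune and 7 to 12 in mesenchymal cells, 1 to 3 in #e2, 2 in #e1, 0 to 1 in sinusoidal, 0 to 7 in stellate and 0 to 1 in mural cells. For Kupffer cells, leaving out all sums of 1 pool left no residual degrees of freedom, and leaving out single cluster sums was not run.

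With the sex of the pool as replicate block, 19, 32, 33 and 30 members were lower than in hepatocytes in cholangiocytes, endothelial, immune and mesenchymal cells, 1 instead of 2 was higher in cholangiocytes than in hepatocytes, and 1 instead of 2 was lower in sinusoidal cells. The replicate block ended 14 of 92 calls of named members, among them Cyp2c55 against hepatocytes in all 4 classes (adjusted p = 0.0636 to 0.0736), Cyp3a59 in endothelial (0.106) and immune cells (0.129), and Cyp2c37 in #e1 (0.193). With sums per plate and plate as a block, 32 of 78 such calls were lost and 1 was reversed.

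At 20 counts per cell or more, the shares of cells were 68.8% for Cyp4b1 (endothelial), 46.1% for Cyp1a1 (#e2), 51.97% for Cyp1b1 (#e1), 38.7% for Cyp2e1 and 38.1% for Cyp20a1 (mesenchymal), 26.9% for Cyp27a1 (immune) and 51.5% for Cyp2d22 (cholangiocytes). Without Trf among the markers, a choice made after seeing the data, 8 members lay above the highest marker in male and 8 in female immune cells.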
